A study of Homo sapiens with 8 samples.

Results

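The genes described here encode fibronectin and other matrix glycoproteins: FN1, TNC, FBN1, FBN2, SPARC, TGFBI, ECM1 and FSTL1. They were picked by gene symbol from a list of 8, and all 8 were found in a table of 13771 genes. The list was chosen with the levels of these same libraries known, so the differences between the cell lines are given as a description of the members and not as a test of them. RNA-seq had been done on MCF10A and DCIS.COM cells, each holding a stable lentiviral pCDH insert, either with the long non-coding RNA HOTAIR (pCDH-HOTAIR) or without one (pCDH-empty), with 2 libraries in each of the 4 groups. The comparison of vectors asks what an excess of HOTAIR changes in normal and pre-invasive breast cells. All cells had been selected with puromycin and grew in DMEM/F-12 with horse serum. The MCF10A medium also held epidermal growth factor, hydrocortisone, insulin and cholera toxin, so that cell line and medium cannot be told apart. Nothing states that the 2 libraries of a group came from separate cultures, or whether a transduced line was a clone or a pool, so the p-values measure only the spread between these libraries.

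MCF10A cells come from normal human breast epithelium and form no tumors. DCIS.COM descends from it through a RAS-transformed derivative and forms lesions like ductal carcinoma in situ in mice. Matrix glycoproteins are secreted proteins that assemble around cells or bind to collagen and other fibres, and cells read them through integrins and related receptors. In the breast, the basal epithelial layer and the stroma make most of them, and fibronectin and tenascin C are known to accumulate around tumors. Transforming growth factor beta (TGF-beta) induces several of these genes, and the fibrillins in turn hold latent TGF-beta in the matrix.

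The libraries held 19306864 to 34884841 reads, recovered from the deposited values as described in the methods. HOTAIR itself had 45 and 40 reads in MCF10A with the empty vector and 4614 and 4827 with pCDH-HOTAIR. In DCIS.COM it had 119 and 140 reads with the empty vector and 7166 and 6385 with pCDH-HOTAIR, so each library carried the level its label states. All 7 basal breast epithelial and all 4 epithelial markers were in the table, and none of the 6 fibroblast markers was. Of 4 leukocyte markers PTPRC and CD3E were absent, while CD14 (mean CPM 22.1 in MCF10A and 1.08 in DCIS.COM) and CD68 (21.8 and 5.10) were present. Of 3 endothelial markers PECAM1 was present (1.70 to 2.69 CPM in MCF10A and 10.1 to 13.3 in DCIS.COM). Of 4 luminal markers 3 were present, with a summed CPM of 15.3 to 16.7 in MCF10A and 33.2 to 37.6 in DCIS.COM. The summed CPM (read counts scaled to library size) of the basal markers ran from 11852 to 13387 in MCF10A and from 3270 to 3692 in DCIS.COM, and that of the epithelial markers from 1600 to 1725 and from 4872 to 6259. KRT14, a basal keratin, had a mean of 1457 CPM in MCF10A and 45.0 in DCIS.COM, and KRT8, a keratin of simple epithelia, had 595 and 2792, but not every marker followed its list. TP63 (14.97 and 25.45) and ITGA6 (1142 and 1499), both basal markers, were higher in DCIS.COM, and CDH1, an epithelial marker, was lower (414 and 280). These markers moved with the cell line, as did the matrix genes below, and their part in the results was not tested. The 2 DCIS.COM pCDH-empty libraries differed most from each other: over 5244 genes with a mean log2 CPM of at least 5 the median difference was 0.19, against 0.039 to 0.053 in the other 3 groups. RN7SL genes took 18.9% of the reads in the first of them and 12.5% in the second. In bulk RNA, fewer cells of a type and less RNA per cell cannot be told apart.

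Sequence upstream of FN1, TGFBI and FBN2 is shown because FN1 and TGFBI were the most abundant members in MCF10A per length while FBN2 was nearly without reads there. Each window held the 250 bases before the RefSeq start, read from GRCh37, and is printed 5′ to 3′ on the gene's strand as far as it lay outside annotated exons. Capitals mark a cyclic AMP response element (CRE, TGACGTCA) and a CCAAT box.
FN1 upstream, chr2:216300797-216300975, - strand: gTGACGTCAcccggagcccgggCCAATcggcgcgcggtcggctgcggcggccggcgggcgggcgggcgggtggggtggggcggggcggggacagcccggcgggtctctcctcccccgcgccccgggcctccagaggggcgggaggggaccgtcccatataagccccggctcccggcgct
TGFBI upstream, chr5:135364427-135364676, + strand: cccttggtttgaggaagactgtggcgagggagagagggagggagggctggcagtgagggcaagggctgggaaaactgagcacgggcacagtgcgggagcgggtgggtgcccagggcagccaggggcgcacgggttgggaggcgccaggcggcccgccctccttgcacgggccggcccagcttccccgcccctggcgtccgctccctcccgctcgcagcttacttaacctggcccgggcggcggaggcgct
FBN2 upstream, chr5:127873939-127874188, - strand: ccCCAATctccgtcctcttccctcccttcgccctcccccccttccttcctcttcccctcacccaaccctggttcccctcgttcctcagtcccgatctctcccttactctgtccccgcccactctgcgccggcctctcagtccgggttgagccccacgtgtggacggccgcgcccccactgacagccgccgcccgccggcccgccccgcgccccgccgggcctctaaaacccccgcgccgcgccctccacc

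The FN1 window held the CRE at 183 bases and CCAAT at 162 bases before the start, and the FBN2 window held CCAAT at 248 bases. Beside the CRE and CCAAT, the words searched were TGACTCA, bound by the AP-1 factors, then GGGCGG, the core of Sp1 sites, and CACCTG, an E-box. Each was sought on both strands, and TATAAA on the gene's strand only. Some GGGCGG matches in FN1 overlap each other. Among 35116 such windows of RefSeq genes, 1.65% held the CRE, 32.0% held CCAAT, 42.6% held the Sp1 word, 17.5% the E-box, 4.20% AP-1 and 6.80% TATAAA. ECM1 was the member with AP-1 (78 bases before the start) and TATAAA (30 bases), and FBN1 and SPARC held none of the 6 words. CpG dinucleotides numbered 32 in FN1, 25 in FBN1 and FBN2, 24 in FSTL1, 20 in TGFBI, 12 in TNC, 7 in SPARC and 1 in ECM1, against a median of 11 over all windows (quartiles 3 and 23). The FBN2 start lies inside the span of longer annotated transcripts. A match is a description of the letters and not a binding site.

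Between the cell lines the members went both ways. FN1, TGFBI, FBN1 and FSTL1 were lower in DCIS.COM by 19.5- to 97.1-fold with the empty vector, FBN2 and SPARC were nearly without reads in MCF10A, and TNC and ECM1 differed by less than 3-fold. With the empty vector all 8 passed the criteria for a call in limma (adjusted p under 0.05, at least 1.5-fold), 3 higher and 5 lower in DCIS.COM. Of all genes tested, 22.5% were called higher and 23.8% lower. With pCDH-HOTAIR in both lines 7 were called, 2 higher and 5 lower, against 22% and 21.7% of all genes. The members' median log2 fold change was -2.81 with the empty vector and -2.74 with pCDH-HOTAIR, beside medians near 0 (-0.00012 and 0.0035) over all genes. Since the members were selected on these levels, nothing is read from the counts. The same holds for the fold changes below, each given with its standard error (SE) from the limma fit.

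FN1 (fibronectin, chr2:216225163-216300796, minus strand) is the dimeric glycoprotein that links collagen and heparan sulfate to integrins. Its log2 CPM was 10.54 and 11.33 in MCF10A with the empty vector, and 11.38 and 11.44 with pCDH-HOTAIR. In DCIS.COM it was 5.70 and 5.73 with the empty vector and 5.43 and 5.23 with pCDH-HOTAIR. The cell lines did not overlap, and the first MCF10A pCDH-empty library was the lowest of the 4 from that line. DCIS.COM was lower by a log2 fold change of -5.22 (SE 0.21) with the empty vector, 37.2-fold, and of -6.08 (SE 0.21) with pCDH-HOTAIR, 67.8-fold. The larger figure with pCDH-HOTAIR goes with values that were higher in MCF10A and lower in DCIS.COM, a difference that is tested below.

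TGFBI (chr5:135364677-135399507, plus strand) encodes a secreted protein, induced by TGF-beta, that binds collagen and integrins. It was at 9.94 and 10.14 log2 CPM in MCF10A pCDH-empty and at 10.39 and 10.60 in MCF10A pCDH-HOTAIR. In DCIS.COM the values were 3.97 and 3.77 and, with pCDH-HOTAIR, 4.33 and 4.32. In both lines the pCDH-HOTAIR libraries were the higher pair. The log2 fold change between the lines was -6.17 (SE 0.10) with either vector, 71.8-fold with the empty vector and 71.9-fold with pCDH-HOTAIR.

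TNC (tenascin C, chr9:117781854-117880486, minus strand), a multi-armed protein that loosens the attachment of cells to fibronectin, was the member closest to equal in the cell lines. Its log2 CPM was 6.50 and 6.87 in MCF10A pCDH-empty, and 6.96 in both MCF10A pCDH-HOTAIR libraries. DCIS.COM had 7.39 and 7.20 with the empty vector and 6.79 and 6.72 with pCDH-HOTAIR. The empty-vector libraries of DCIS.COM were thus above all 6 others, and those with pCDH-HOTAIR fell within the range of MCF10A. The log2 fold change of DCIS.COM over MCF10A was 0.61 (SE 0.12) with the empty vector and -0.21 (SE 0.12) with pCDH-HOTAIR, where TNC was not called. The call with the empty vector was close to the fold limit and was lost without the first MCF10A pCDH-empty library (0.42), without the first DCIS.COM pCDH-empty library (0.51) and after a correction for GC content (0.54).

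The fibrillins form the microfibrils of the matrix, FBN1 through life and FBN2 mostly during development, and they went in opposite directions. FBN1 (chr15:48700510-48937918, minus strand) was at 7.33 and 8.18 log2 CPM in MCF10A pCDH-empty and at 7.99 and 7.98 with pCDH-HOTAIR. In DCIS.COM it was at 1.93 and 2.39 CPM on the linear scale, and with pCDH-HOTAIR at 1.58 and 2.47, which is 56 to 83 reads per library. As with FN1, the first MCF10A pCDH-empty library was the lowest of its line. DCIS.COM was lower by a log2 fold change of -6.60 (SE 0.29), 97.1-fold, with the empty vector and of -6.95 (SE 0.29), 124-fold, with pCDH-HOTAIR.

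FBN2 (chr5:127593601-127994878, minus strand) was counted at 1 and 0 reads in MCF10A with the empty vector and at 3 and 0 with pCDH-HOTAIR. The DCIS.COM libraries held 1405 and 1359 reads with the empty vector and 1355 and 1163 with pCDH-HOTAIR, or 5.55, 5.67, 5.26 and 5.12 log2 CPM. Summed over libraries and scaled for depth, the ratio of DCIS.COM to MCF10A was 2809 (95% exact interval 504 to 110971) with the empty vector and 478 (163 to 2320) with pCDH-HOTAIR. Both intervals cover counting error only, and they overlap. FBN2 shares exon positions with SLC27A6, a fatty acid transporter on the opposite strand, and whether counting used strand is not stated in the sources used here. SLC27A6 had 0 reads in all 4 MCF10A libraries and 51 to 64 in the DCIS.COM libraries. How reads at the shared positions were assigned was not tested. TNC, SPARC and FSTL1 also share exon positions with a gene on the opposite strand, none of which is in the table.

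SPARC (chr5:151040657-151066536, minus strand), a collagen-binding protein that modulates adhesion, showed a similar contrast. It had 4 and 6 reads in MCF10A pCDH-empty and 6 and 4 in MCF10A pCDH-HOTAIR. In DCIS.COM it was at 7.65 and 7.62 log2 CPM with the empty vector and at 7.53 and 7.44 with pCDH-HOTAIR, from 5269 to 6547 reads. The ratio of the lines was 1149 (exact interval 625 to 2397) with the empty vector and 705 (383 to 1470) with pCDH-HOTAIR. FBN2 and SPARC were above a CPM of 0.5 in no MCF10A library. They entered the table, whose genes all exceed that level in at least 2 libraries, through DCIS.COM alone and had to differ. The other 6 exceeded it in all 8 libraries.

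FSTL1 (chr3:120111140-120169863, minus strand) belongs to the SPARC family by its domains and binds bone morphogenetic proteins, yet it had the opposite pattern to SPARC. It was at 8.30 and 8.40 log2 CPM in MCF10A pCDH-empty, and at 8.50 and 8.61 with pCDH-HOTAIR. In DCIS.COM the values were 4.11 and 4.02, and 4.39 and 4.41 with pCDH-HOTAIR. The pCDH-HOTAIR libraries were the higher pair in each line, and the cell lines were apart by a log2 fold change of -4.28 (SE 0.071) with the empty vector, 19.5-fold, and -4.16 (SE 0.071) with pCDH-HOTAIR, 17.9-fold.

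ECM1 (chr1:150480538-150486265, plus strand), a secreted glycoprotein best known from skin, where it binds other matrix proteins, was low throughout. Its log2 CPM was 2.87 and 2.95 in MCF10A pCDH-empty and 3.39 and 3.36 in MCF10A pCDH-HOTAIR. On the linear scale DCIS.COM had 3.06 and 2.76 CPM with the empty vector and 4.56 and 3.67 with pCDH-HOTAIR, from 74 to 162 reads, against 7.22 to 10.4 CPM in MCF10A. The pCDH-HOTAIR libraries were again above the empty-vector libraries in both lines. Between the lines the log2 fold change was -1.33 (SE 0.14) with the empty vector and -1.32 (SE 0.14) with pCDH-HOTAIR, or 2.52-fold and 2.50-fold lower in DCIS.COM.

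Per length of annotated exons, the order of the members differed between the lines. In MCF10A pCDH-empty the highest were TGFBI with 136 ± 13 CPM per kb (mean ± SD, n = 2) and FN1 with 118 ± 44, whose ranges overlapped. FSTL1 followed with 34.7 ± 1.7, then FBN1 with 12.1 ± 4.9 and TNC with 10.8 ± 2.0, which overlapped each other, and ECM1 with 2.21 ± 0.095. SPARC and FBN2 were last, at most 0.049 CPM per kb in any of these libraries. In MCF10A pCDH-HOTAIR the order of the 8 was the same, with no neighbours overlapping.

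In DCIS.COM pCDH-empty SPARC was first with 42.8 ± 0.66 CPM per kb (mean ± SD, n = 2) and TNC next with 16.4 ± 1.5. FN1 had 3.05 ± 0.053, FBN2 2.73 ± 0.16, TGFBI 1.89 ± 0.18 and FSTL1 1.77 ± 0.075, and only the last of these pairs of neighbours overlapped. ECM1 had 0.866 ± 0.063 and FBN1 0.117 ± 0.018. With pCDH-HOTAIR, SPARC (38.6 ± 1.6) and TNC (11.2 ± 0.40) stayed ahead, TGFBI (2.59 ± 0.0083) came next, FN1 and FSTL1 overlapped behind it, and FBN2 dropped to rank 6. TGFBI and FN1 change ranks 3 and 4 there when the length of the longest transcript is used in place of all exons.

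Whether HOTAIR changed the members within a line was asked against the spread between libraries, and the spread itself was uneven. In MCF10A pCDH-empty, FN1 differed between the 2 libraries by 0.78 on the log2 scale, FBN1 by 0.85 and TNC by 0.38. Among 5408 genes with a mean log2 CPM of at least 5 in that group the median difference was 0.051, and 11 genes (0.203%) differed by as much as FN1, 8 (0.148%) by as much as FBN1 and 71 (1.31%) by as much as TNC. In MCF10A pCDH-HOTAIR the same 3 genes differed by 0.058, 0.012 and 0.0026. This comparison was chosen after the values had been seen, and what sets the first library apart was not tested. In DCIS.COM pCDH-empty, where the median difference was larger, FN1 differed by 0.035, SPARC by 0.031, FBN2 by 0.12 and TNC by 0.19.

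In MCF10A all 8 members had a higher mean with pCDH-HOTAIR, and none was called by limma. Only 0.0218% of all genes were called in this comparison. The fit takes its spread from all 4 groups, including the more uneven DCIS.COM pCDH-empty libraries. With only the 2 MCF10A groups fitted, limma called 1 gene and 0 members, and 2052 of 13771 genes had an unadjusted p under 0.05. TGFBI, the protein of the TGF-beta response, was 0.46 higher (SE 0.10, adjusted p = 0.302 in limma), ECM1 0.47 (SE 0.14, adjusted p = 0.460) and FSTL1 0.21 (SE 0.071, adjusted p = 0.560). These 3 members had an unadjusted p under 0.05, as did 7.28% of all genes. FN1 was 0.48 higher with an interval from -0.02 to 0.97 (adjusted p = 0.705 in limma), and TNC 0.28 higher with an interval from -0.0036 to 0.56 (adjusted p = 0.693). FBN1 (0.23), FBN2 (0.56) and SPARC (0.40) had wider intervals that held 0.

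For FN1, TNC and FBN1 the size of the MCF10A difference rested on the first pCDH-empty library. Without it FN1 was 0.083 higher, TNC 0.089 higher and FBN1 -0.19, that is lower, and without the other one FN1 was 0.87 higher. TGFBI (0.36), ECM1 (0.42) and FSTL1 (0.16) kept their direction without it. The median of the 8 members was 0.43, beside -0.0055 over all genes, and 0.14 without that library. Both pCDH-HOTAIR libraries were above both pCDH-empty libraries for 5 members (FN1, TNC, TGFBI, ECM1 and FSTL1), as for 22.5% of all genes, and below both for 0 members, against 24.8% of all genes.

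In DCIS.COM the members were split, and again 0 were called, with 0.0871% of all genes called. TGFBI was 0.46 higher with pCDH-HOTAIR (SE 0.10, adjusted p = 0.171 in limma), ECM1 0.48 (SE 0.14, adjusted p = 0.222) and FSTL1 0.33 (SE 0.071, adjusted p = 0.156), while TNC was -0.54 (SE 0.12, adjusted p = 0.170). The unadjusted p was under 0.05 for these 4 members, and for 17.5% of all genes. FN1 was at -0.39 with an interval from -0.88 to 0.10 (adjusted p = 0.345 in limma), FBN2 at -0.42, SPARC at -0.15 and FBN1 at -0.12, all with intervals that held 0. Over the alternatives that kept all libraries, the adjusted p of TGFBI ran from 0.0305 to 0.553, and its fold change stayed under 1.5. The members' median was -0.13, beside 0.010 over all genes.

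The pCDH-HOTAIR libraries of DCIS.COM were both above the pCDH-empty libraries for TGFBI, ECM1 and FSTL1, 3 members, as for 24.7% of all genes. They were both below for FN1, TNC, FBN2 and SPARC, 4 members, as for 24.5% of all genes. Without the second DCIS.COM pCDH-empty library TNC was called at -0.64 (adjusted p = 0.00416 in limma), a setting under which 1115 genes of the table were called higher and 288 lower. Without the first one TNC was at -0.44 and no member was called. With 2 libraries against 2, an exact permutation of a single gene's values cannot give a p below 0.333, so these tests lean on the spread that limma shares between genes.

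**Figure D1:**
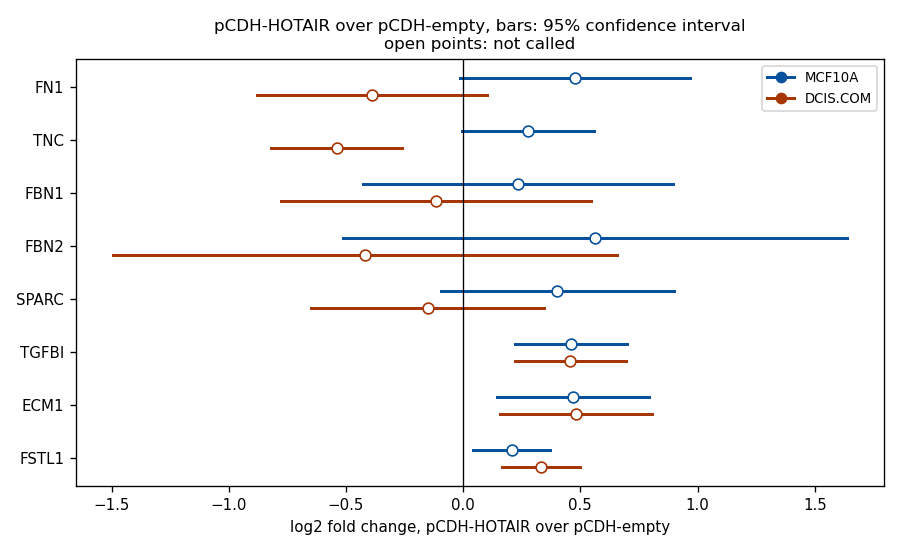
Log2 fold change of pCDH-HOTAIR over pCDH-empty (horizontal axis) for each member (vertical axis) in MCF10A and in DCIS.COM, with bars for the 95% confidence interval and open points because no member was called. TGFBI, ECM1 and FSTL1 lie right of 0 in both lines, and FN1 and TNC lie right of 0 in MCF10A and left of it in DCIS.COM.

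The difference of the HOTAIR effect between the lines (DCIS.COM minus MCF10A) was called for 0 members, against 0.0436% of all genes. It was -0.82 (SE 0.17, adjusted p = 0.259 in limma) for TNC and -0.87 (SE 0.30, adjusted p = 0.430) for FN1, the 2 members with an unadjusted p under 0.05, which 10.5% of all genes had. For FN1 it was -0.47 without the first MCF10A pCDH-empty library. TNC was at -0.63 without that library and at -0.91 without the second DCIS.COM pCDH-empty library, which leaves that group without a replicate. For TGFBI the difference was -0.0012 with an interval from -0.34 to 0.34, for ECM1 0.014 (-0.44 to 0.47) and for FSTL1 0.12 (-0.11 to 0.36). FBN1 (-0.35), SPARC (-0.55) and FBN2 (-0.98) had wider intervals, and the FBN2 value rests on 4 reads in MCF10A.

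After centring on each cell line's mean, the genes outside the list most like FN1 over the 8 libraries were PMS2P9 (Pearson r 0.99), NBEA (0.97), CEMIP2 (0.97), MYO5A (0.96) and UNC5C (0.96). PMS2P9 is a pseudogene with near-identical copies, and its counts are uncertain. Among the members TNC (0.86) and SPARC (0.81) were most like FN1, FBN1 followed (0.63), and FSTL1 was least like it (0.025). The SPARC value rests in part on MCF10A libraries with only 4 or 6 reads each. These values describe 8 points that share the normalization and the 4 group means. The first MCF10A pCDH-empty library was the lowest of its line for FN1, TNC, FBN1 and SPARC. Its weight in these r values was not tested.

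The wider matrix gene set was read from 4 lists. Of 73 other matrix glycoprotein genes 40 were in the table, and with the empty vector 12 of them were called higher and 19 lower in DCIS.COM, with a median log2 fold change of -0.32. With pCDH-HOTAIR the counts were again 12 and 19. The share called, above the 22.5% and 23.8% of all genes, describes this list alone. MGP, an inhibitor of calcification, was higher by 9.67 (SE 0.28). FREM2 and HMCN1, proteins of the epithelial basement membrane zone, had 3356 against 2 reads and 4555 against 15 reads in DCIS.COM and MCF10A, a ratio of 1705 (exact interval 472 to 14085) and of 309 (187 to 552). Like FBN2 and SPARC, FREM2 and HMCN1 had too few MCF10A reads to enter the table without DCIS.COM, so they had to differ.

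In this comparison the largest falls among the called glycoproteins were those of TNXB, POSTN and FSTL3. TNXB, a tenascin relative of TNC whose counts are uncertain because a near-identical partial copy exists, had 2585 reads in MCF10A pCDH-empty and 2 in DCIS.COM, a ratio of 1272 (exact interval 352 to 10509). POSTN (periostin), the paralog of TGFBI, had 804 reads and 0, and was at least 264-fold lower in DCIS.COM against a floor of 3 counts over the group. TNXB and POSTN had too few DCIS.COM reads to enter the table without MCF10A, so they too had to differ. FSTL3, a follistatin relative that binds activin, was lower by a log2 fold change of -7.57 (SE 0.094). With pCDH-HOTAIR the same 6 genes headed the list in both directions.

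Of 13 receptor genes for these proteins 11 were in the table, 4 of them called higher and 6 lower in DCIS.COM with the empty vector, and 3 and 6 with pCDH-HOTAIR. Of all genes, 22.5% were called higher and 23.8% lower with the empty vector, and 22% and 21.7% with pCDH-HOTAIR. These shares also stand beside the lists that follow, which were likewise chosen with earlier results known. ITGA5 and ITGB1, whose products pair as the classical fibronectin receptor, were lower by -3.88 (SE 0.096) and -1.73 (SE 0.085), and ITGA4, another fibronectin-binding subunit, by -2.18 (SE 0.31). ITGB3 was higher by 3.81 (SE 0.31), ITGB5 by 0.91 (SE 0.066) and ITGB8 by 0.78 (SE 0.18), each a beta subunit that pairs with the alpha V integrin. FN1 and its classical receptor subunits were thus all lower in DCIS.COM.

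Among 14 measured genes (of 17) that process or cross-link matrix proteins, 3 were called higher and 9 lower with either vector, with a median of -1.67 for the empty vector. LOXL4, a lysyl oxidase that cross-links collagen and elastin, had 13058 reads against 16, a ratio of 829 (exact interval 510 to 1451), TGM2, a transglutaminase that cross-links fibronectin, was higher by 4.28 (SE 0.26) and LOXL3 by 3.05 (SE 0.15). ADAMTSL4, which binds fibrillin microfibrils, was lower by -6.36 (SE 0.21), ADAMTS6 by -5.00 (SE 0.21) and the procollagen protease BMP1 by -3.74 (SE 0.091). LOXL4 had too few MCF10A reads to enter the table without DCIS.COM and had to differ. ADAMTSL4 and ADAMTS6 had 17 and 18 summed reads in DCIS.COM pCDH-empty, and 30 and 29 in DCIS.COM pCDH-HOTAIR. These were too few to enter the table without MCF10A, so both had to differ too.

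Of 12 genes of TGF-beta signalling, all measured, 2 were called higher and 6 lower with the empty vector, with a median of -0.58, and 0 and 6 with pCDH-HOTAIR. The ligand TGFB1 was lower by -2.40 (SE 0.14) and the receptor TGFBR2 by -2.03 (SE 0.060). SMAD3 (0.72, SE 0.083) and TGFB2 (0.67, SE 0.14) were higher. TGFBI, the member named for this pathway, was lower by -6.17 in the same libraries.

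Between the vectors 1 gene of these lists was called by limma: MMP14, a membrane-bound protease that cleaves fibronectin among other matrix proteins, was 0.63 higher with pCDH-HOTAIR in DCIS.COM (SE 0.070, adjusted p = 0.0271). It was called under 8 of 10 alternatives that kept all libraries, with adjusted p from 0.0181 to 0.553, and lost without the mean-variance trend (0.113) and with only the 2 DCIS.COM groups fitted (0.553). With a library left out it was called in 1 of 8 cases, without the second DCIS.COM pCDH-empty library (0.69). Without the first one the change was 0.56, under the 1.5-fold limit. Leaving out an MCF10A library kept it at 0.63. In MCF10A 31 of 40 other glycoproteins, 8 of 11 receptors, 11 of 14 processing genes and 10 of 12 TGF-beta genes had a higher mean with pCDH-HOTAIR. Without the first pCDH-empty library these were 26, 6, 12 and 8. In DCIS.COM the numbers with a higher mean were 23, 9, 8 and 7. Over all genes the median log2 fold change was -0.0055 in MCF10A and 0.010 in DCIS.COM. The lists were chosen with earlier results known, so nothing is read from these numbers.

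Genes among those with the greatest difference in each list, none of them called, were as follows in MCF10A. ITGB3 was 1.28 higher with pCDH-HOTAIR (SE 0.31, adjusted p = 0.324 in limma), ITGA5 0.47 (adjusted p = 0.244 in limma) and LOXL2, a lysyl oxidase, 0.62 (SE 0.10, adjusted p = 0.155 in limma). The ITGB3 value rests on 47 summed reads with pCDH-empty and 79 with pCDH-HOTAIR. TGFB3 was 0.33 higher and EFEMP2, a fibulin, 0.72, and CCN3 and LOXL4 had at most 16 summed reads in a group. In DCIS.COM the values were 0.33 for TGFBR1, 0.86 for ITGA4, 0.49 for ITGB3, -0.78 for MFAP5, a microfibril protein, and 0.72 for SMOC2, a relative of SPARC. Summed reads there, pCDH-empty then pCDH-HOTAIR, were few for ITGA4 (29 and 66), MFAP5 (48 and 35) and SMOC2 (49 and 101). For the difference between the lines they were -0.91 for LOXL2 (SE 0.14, adjusted p = 0.152 in limma), 1.19 for LOXL4, -1.34 for CCN3, -1.03 for MFAP5, -0.79 for ITGB3, 0.58 for ITGB6, -0.66 for TGFB3 and -0.56 for SMAD7.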

How the data were processed

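Total RNA of the 8 cell line samples had been sequenced by the authors. The authors mapped the reads with Rsubread to hg19 (GRCh37), used featureCounts on the UCSC gene models, and normalized with edgeR. The deposited table, in log2 CPM, holds 13771 genes that each exceed a CPM of 0.5 in at least 2 libraries. Of these, 343 lacked a symbol. Strand use in counting and the normalization factors are not given in the sources used here.

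Whole reads were recovered from the deposited log2 CPM (prior of 0.0717 CPM, 100% of values within 0.01 reads of a whole number), which gave 19306864 to 34884841 reads per library. The test was limma 3.58.1 in R 4.3.3 on the deposited values, with 4 group means, a mean-variance trend and Benjamini-Hochberg adjustment over all genes. Calls needed an adjusted p under 0.05 and a 1.5-fold change, with no fold limit for the difference between the lines. The fit was tried on simulated libraries with the same spread in every group, which cannot show how it behaves under the uneven spread of these groups. Count ratios carry exact binomial intervals (95%), with a floor of 3 counts. Positions, exon lengths and GC content (13011 genes, 94.5%) came from GENCODE on GRCh37, and upstream windows from RefSeq starts, all 8 matched. The rest ran in Python 3.11.15 with scipy 1.17.1, pandas 2.3.3 and numpy 2.4.6.

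The members, lists and tests were chosen with earlier results of these data known. Named were all members, HOTAIR, up to 3 called genes per list and direction (without calls, the 2 with the largest change) and the 5 genes most like FN1 among 13184 with a mean CPM of at least 1. A gene that this rule names is not reported here. Alternatives were a pseudocount of 1, a mean CPM of at least 2, median centring, quantile normalization, GC correction (loess span 0.4), no trend, a replicate block, the 2 groups alone, limma-voom on recovered reads, other fold limits and each library left out. Replicate numbers did not pair the libraries.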

Additional observations from a re-analysis of the deposited data

How the results depend on the processing

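Of 584 values of single members under the alternatives other than fold limits, 559 kept their direction and their side of the threshold, 19 reversed, 4 lost a call and 2 gained one. No sign changed between the cell lines. With the replicate number as a block the members called stayed at 8, 7, 0, 0 and 0 for the 2 line comparisons, the 2 HOTAIR comparisons and their difference, and the correlations of same-numbered libraries ran from -0.029 to 0.036, so the numbers do not pair them. Leaving out the second DCIS.COM pCDH-empty library leaves that group without a replicate. Many more genes of the whole table then passed, for HOTAIR in DCIS.COM and for the difference between the lines. TNC was the member among them in both, and nothing is read from its calls there. Leaving out libraries gave FBN1 in MCF10A -0.19 to 0.66, FBN2 in MCF10A -0.27 to 1.39 and FBN1 in DCIS.COM -0.43 to 0.20. For the difference between the lines it gave FBN1 -0.77 to 0.074, TGFBI -0.10 to 0.10 and ECM1 -0.14 to 0.17. That difference also reversed for TGFBI with quantile normalization (0.038), GC correction (0.097) and the block with GC correction (0.097), and for ECM1 with a pseudocount of 1 (-0.041), median centring (-0.010) and quantile normalization (-0.032). The cause was not tested. The fitted FBN2 difference between the lines with the empty vector ran from 5.61 to 10.66, since it depends on the value given to 0 reads. A fold limit of 1.5 on the log2 scale left 6 members called in each line comparison. Over all genes, the calls with HOTAIR in DCIS.COM were 12 higher and 0 lower, 42 and 6 after GC correction, 0 with only those 2 groups fitted, and 1115 and 288 without that library.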
